A study of Mus musculus with 8 samples.

Results

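The genes described are the 10 that carry antigen presentation by major histocompatibility complex (MHC) class II in the mouse, taken by symbol from a table of 21878 genes: H2-Aa, H2-Ab1, H2-Eb1, Cd74, H2-DMa, H2-DMb1, H2-DMb2, H2-Oa, H2-Ob and Ciita. All 10 were found. RNA came from whole peripheral blood of wild-type female C57BL/6 mice aged 6 to 8 weeks. In the stress group (n = 4), mice were restrained for 6 hours in a ventilated tube, and in the control group (n = 4) littermates stayed in their cage. Neither group had food or water in that time, so both groups fasted. The blood was not sorted, so each value is an average over all cells with RNA, and fewer cells of a type and less RNA per cell cannot be told apart. The labels do not say that each sample is 1 mouse, and the p-values measure the spread between these samples.

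Class II molecules are pairs of an alpha and a beta chain that show peptides from endosomes to CD4+ T cells. In C57BL/6 mice H2-Aa and H2-Ab1 encode the chains of I-A, while H2-Eb1 encodes the beta chain of I-E, whose alpha chain gene is not functional in this strain. Cd74 is the invariant chain, which guides new class II molecules to the endosome and fills their groove until it is cut down to a fragment. H2-DM, made from H2-DMa with H2-DMb1 or H2-DMb2, removes that fragment and helps to exchange peptides, and H2-DO, made from H2-Oa and H2-Ob, inhibits H2-DM, mainly in B cells. Ciita encodes the transactivator of class II genes. In blood, class II is carried mostly by B cells, with dendritic cells and some monocytes.

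The class II transactivator and the genes of H2-DO were lower in stressed mice, while the chains of class II itself and Cd74 did not pass the test. Whether the called genes fell more than the chains and Cd74 was not tested. The chain gene H2-Eb1 passed in a further fit with a trend against transcript length taken out. Counts were scaled by the TMM method, which takes most genes as unchanged, given as CPM (counts scaled to a common library size), and compared with edgeR's quasi-likelihood test with adjustment over the 11718 genes with 10 or more counts in 4 or more samples. At an adjusted p below 0.05, Ciita, H2-Ob, H2-DMb2 and H2-Oa fell, so that 4 of the 10 members were lower and 0 were higher. Among all tested genes 3.69% were lower and 10.4% higher by the same rule. At an unadjusted p under 0.05, 5 members were lower and 0 higher, against 13% and 18.2% of all tested genes. DESeq2 called 5 members lower and limma-voom 4, each with 0 higher, where 3.74% and 3.84% of all their genes were lower. All 10 members had a log2 fold change below 0, with a median of -0.32 against -0.03 over all tested genes. At stricter thresholds taken from the methods of the study (adjusted p below 0.01 with a log2 change over 1 either way), 0 members were called lower and 0 higher with each of the 3 tools. By these thresholds 0.0171% of tested genes were lower and 1.69% higher.

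Promoters of several members hold the layout that class II genes are known for, a GCAAC core (part of the X box, read by the RFX complex) followed by TGATTGG (part of the Y box, read by NF-Y). RefSeq sequences (GRCm38.p6) from 250 bases before to 50 after the start of transcription were found for 7 of the 9 members looked up (not H2-Ab1 or Ciita, and Cd74 was not looked up). Of these 7, 4 held GCAAC before TGATTGG, 2 held TAAC in its place and 1, H2-DMa, held neither pair. The stretch with the motifs is printed 5′ to 3′ for the members in which it lies outside the annotated exons or overlaps them by at most 7 bases (that of H2-DMb2 lies inside the annotated gene, between exons), and for their neighbour H2-Eb2, with both motifs in capitals:
H2-Aa: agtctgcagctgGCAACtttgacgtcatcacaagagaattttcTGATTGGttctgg
H2-Eb1: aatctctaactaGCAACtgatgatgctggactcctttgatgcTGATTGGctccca
H2-Oa: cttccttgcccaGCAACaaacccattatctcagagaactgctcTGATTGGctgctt
H2-Ob: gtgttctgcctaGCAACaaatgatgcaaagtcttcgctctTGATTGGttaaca
H2-Eb2: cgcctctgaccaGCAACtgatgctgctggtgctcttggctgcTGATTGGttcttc
H2-DMb2: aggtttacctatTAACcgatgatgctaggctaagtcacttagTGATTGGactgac

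These stretches lie on chromosome 17 of GRCm38, at chr17:34287861-34287916 on the minus strand for H2-Aa and on the plus strand at chr17:34305764-34305818 for H2-Eb1, chr17:34092291-34092346 for H2-Oa, chr17:34238806-34238858 for H2-Ob, chr17:34325531-34325585 for H2-Eb2 and chr17:34145115-34145169 for H2-DMb2. GCAAC stood 26 bases before TGATTGG in H2-Aa and H2-Oa, 25 in H2-Eb1 and H2-Eb2 and 23 in H2-Ob. In H2-DMb2, and likewise in H2-DMb1, TAAC took that place at a distance of 26 bases. The letters were chosen after these sequences had been read. GCAAC with TGATTGG 20 to 35 bases further on, searched on both strands, was in 0.143% of 32851 promoters, and TAAC with TGATTGG at the same distance in 0.326%. TGATTGG alone was in 7.82%. The 2 promoter entries of H2-DMa held no TGATTGG on either strand. Members with the GCAAC layout included ones that fell (H2-Oa, H2-Ob) and ones that did not pass the test (H2-Aa, H2-Eb1).

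Ciita changed the most of the members. Its level was 75.2, 84.4, 75.9 and 64.7 CPM in control replicates 1 to 4 and 51.8, 39.0, 32.3 and 53.3 CPM in stress replicates 1 to 4. Every stress sample lay below every control sample, and the lowest of all was stress replicate 3. The control mean was 75.04 ± 8.06 CPM and the stress mean 44.1 ± 10.1 CPM (here and below, ± is the SD over 4 samples). The log2 fold change was -0.76 with a standard error of 0.15 (adjusted p = 0.00636, edgeR). Of all tested genes, 1.78% had a lower log2 fold change. The call held in every one of the 8 fits without 1 sample, at log2 fold changes from -0.87 to -0.63. Ciita (GRCm38 chromosome 16, 10480059 to 10528418, plus strand) shares 329 exonic bases with Dexi on the opposite strand, and the strand setting of the counts is not given in the sources used here.

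Both genes of H2-DO, the inhibitor of H2-DM, fell. H2-Ob measured 134.0, 165.2, 157.0 and 141.5 CPM in the control samples and 101.8, 96.1, 116.0 and 112.1 CPM in the stress samples, without overlap. Its log2 fold change was -0.49 (standard error 0.12, adjusted p = 0.0195). H2-Oa measured 20.5, 25.5, 27.0 and 22.7 CPM in the control samples and 18.1, 14.1, 22.1 and 14.95 CPM in the stress samples. Here the groups overlapped, because stress replicate 3 lay above control replicate 1. Its log2 fold change was -0.48 (standard error 0.14, adjusted p = 0.0422). H2-Oa shares 321 exonic bases with the antisense gene BC051537, so part of its reads may be split or lost.

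The genes of H2-DM, which loads peptides, differed among themselves in whether they passed. H2-DMb2 measured 76.1, 86.1, 85.7 and 77.4 CPM in the control samples and 56.2, 61.7, 62.5 and 65.2 CPM in the stress samples, a fall without overlap (log2 fold change -0.41, standard error 0.10, adjusted p = 0.0212). H2-DMb1, the other beta chain gene, measured 21.8, 26.5, 22.8 and 20.3 CPM in the control samples and 17.7, 17.5, 19.7 and 17.7 CPM in the stress samples. Its groups did not overlap either, but it missed the threshold (log2 fold change -0.34, standard error 0.11, adjusted p = 0.0525), while DESeq2 called it (adjusted p = 0.0393), as did edgeR without stress replicate 3 (0.0353). H2-DMa, the alpha chain, measured 31.8, 38.2, 38.8 and 32.5 CPM in the control samples and 33.3, 30.1, 38.6 and 29.1 CPM in the stress samples. These ranges largely overlapped (log2 fold change -0.11, standard error 0.12, adjusted p = 0.556). Stretches of 100 bases are shared between the transcripts of both beta chain genes, 11.3% of those in H2-DMb1 and 10.3% of those in H2-DMb2, so their split of reads is uncertain there, and H2-DMa shares 6.58% with Brd2 on the other strand.

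The 4 calls did not rest on the same footing. Ciita stayed below an adjusted p of 0.05 in each of the 8 fits, while H2-Ob and H2-DMb2 missed it without control replicate 2 (0.0806 and 0.0853), control replicate 3 (0.0638 and 0.0767), stress replicate 1 (0.0645 and 0.0673) or stress replicate 2 (0.0802 and 0.0621), with log2 fold changes of -0.54 to -0.41 for H2-Ob and -0.44 to -0.34 for H2-DMb2. H2-Oa kept its call in 2 of these 8 fits, without control replicate 1 (adjusted p = 0.0465) and without stress replicate 3 (0.00731), and missed it in the other 6 (0.0772 to 0.142). Ciita was thus the 1 member called without control replicate 2, control replicate 3, stress replicate 1 or stress replicate 2.

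The class II chains and Cd74, the most abundant members, did not pass the test, and their groups overlapped. H2-Aa measured 304.1, 372.7, 391.1 and 312.1 CPM in the control samples and 294.3, 235.7, 329.3 and 255.0 CPM in the stress samples (log2 fold change -0.31, standard error 0.16, adjusted p = 0.212). H2-Ab1 measured 262.7, 328.9, 335.3 and 277.9 CPM against 285.7, 218.3, 321.1 and 229.6 CPM (log2 fold change -0.19, standard error 0.17, adjusted p = 0.457). In both, stress replicates 1 and 3 lay within or close to the control range and stress replicates 2 and 4 below it. H2-Eb1 measured 253.3, 312.3, 311.2 and 262.6 CPM against 248.3, 214.2, 272.9 and 205.5 CPM (log2 fold change -0.28, standard error 0.15, adjusted p = 0.229). Cd74 measured 1002, 1197, 1234 and 1063 CPM against 1080, 863, 1210 and 928 CPM (log2 fold change -0.14, standard error 0.20, adjusted p = 0.674). Without 1 sample each, the log2 fold change ranged from -0.22 to -0.0376 for Cd74, from -0.28 to -0.0817 for H2-Ab1 and, for H2-DMa above, from -0.18 to -0.0435. By mean CPM, Cd74 ranked 36 and H2-Aa 121 among the 11718 tested genes.

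**Figure D1:**
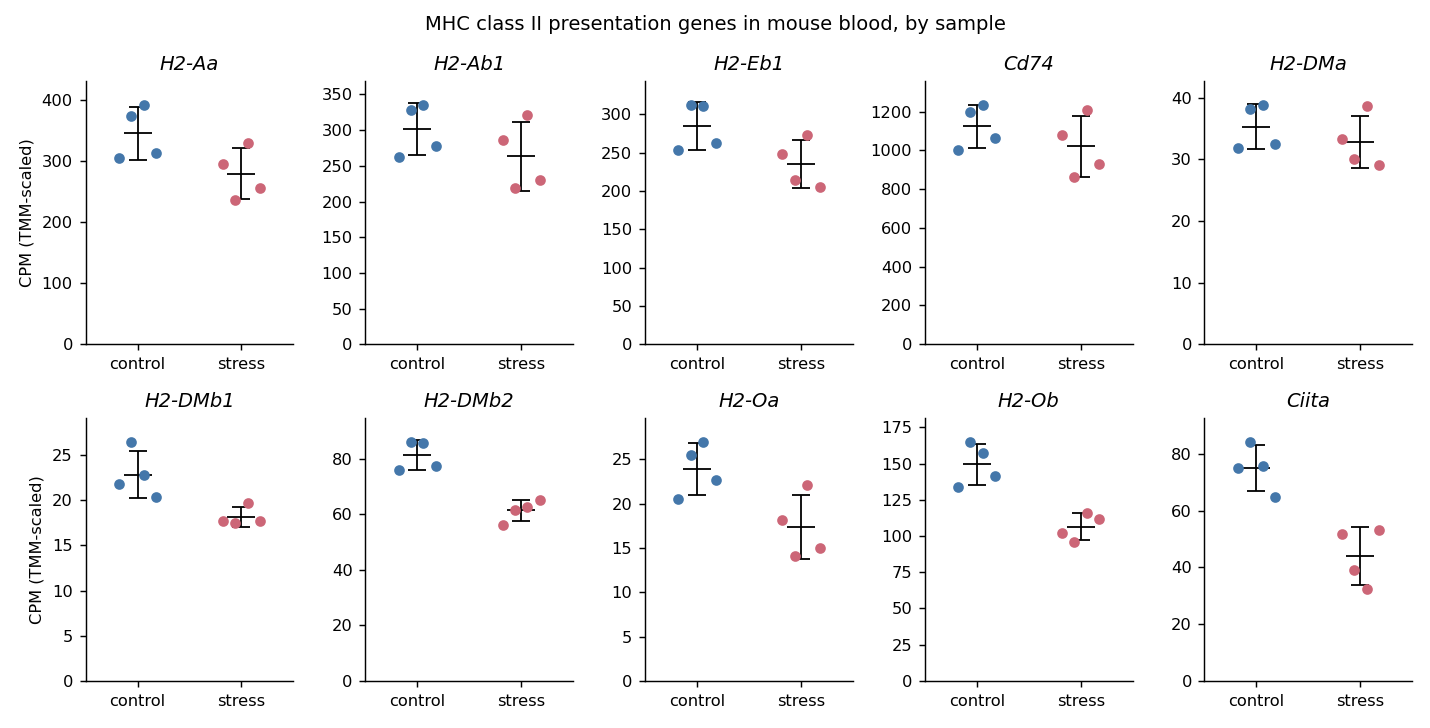
Level of each member in TMM-scaled CPM (y axis, from 0), for 4 control and 4 stress samples. Points are samples in the order of their replicate number, horizontal lines with bars are the mean ± SD. The groups did not overlap for H2-DMb1, H2-DMb2, H2-Ob and Ciita.

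The groups did not overlap, with every stress sample below every control sample, for 4 of the 10 members and for 9.88% of all tested genes. In 6 members they overlapped, and in 0 did every stress sample lie above, against 11.1% of all tested genes. Ciita, H2-Ob, H2-DMb2 and H2-DMb1 were the 4.

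Levels of different genes were compared per kb of exon, since long transcripts yield more reads. In the control group Cd74 led with 669.5 ± 65.4 CPM per kb, followed by H2-Eb1 (146.5 ± 16.1), H2-Ab1 (117.3 ± 14.1) and H2-Aa (90.8 ± 11.4). H2-DMb2 stood at 46.5 ± 3.04, H2-Ob at 27.8 ± 2.65, H2-Oa at 17.01 ± 2.07, H2-DMb1 at 13.6 ± 1.56, H2-DMa at 10.2 ± 1.07 and Ciita at 7.87 ± 0.845 CPM per kb. The control samples of H2-Eb1 and H2-Ab1 overlapped, as did those of H2-Ab1 and H2-Aa and those of H2-Oa and H2-DMb1, while the other neighbours in this order did not. Within each of the 4 control samples the order was the same. In the stress group the order of the means was the same, from 607.7 ± 93.1 for Cd74 to 4.62 ± 1.06 CPM per kb for Ciita. The exon lengths join all annotated transcripts of a gene, which lowers the value of genes with long rare forms. H2-Ab1 has 2568 joined exonic bases and a longest transcript of 1212, and H2-Eb1 has 1944 and 1669. By the longest transcript H2-Ab1 would stand above H2-Eb1, so the order of neighbours depends on the length used. The same order in each sample does not bear on this, as the samples share the length of each gene.

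Ratios within a library do not depend on how libraries are scaled, and 4 of them were set by the roles of the genes. The ratio of H2-Ab1 to H2-Aa reads, the beta to the alpha chain of I-A, was 0.864, 0.882, 0.857 and 0.890 in the control samples and 0.971, 0.926, 0.975 and 0.900 in the stress samples. Cd74 reads stood at 1.77, 1.71, 1.70 and 1.80 times the summed reads of H2-Aa and H2-Ab1 in the control samples and at 1.86, 1.90, 1.86 and 1.91 times in the stress samples. Every stress sample was above every control sample in both ratios, with log2 differences of 0.11 and 0.11. Neither separation held once a trend against transcript length was taken out of each library.

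The ratio of H2-DMa to the I-A chains also lay higher in stress, with control samples at 0.0547 ± 0.00110 and stress samples at 0.0608 ± 0.00386 (log2 difference 0.15). The ratio of the H2-DO genes to the 3 H2-DM genes went the other way. It was 1.19, 1.26, 1.25 and 1.26 in the control samples and 1.120, 1.01, 1.14 and 1.14 in the stress samples, a log2 difference of -0.17. Each of the 4 ratios separated the groups completely (two-sided exact permutation test over 70 assignments, p = 0.0286 for each, the smallest p that 4 samples against 4 allow, and 0.0286 after adjustment over the 4 ratios). The largest of the 4 log2 differences was -0.17, that of H2-DO to H2-DM, and without stress replicate 2 it was -0.13 (exact permutation p = 0.0571). Its groups, too, overlapped with the length trend taken out.

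**Figure D2:**
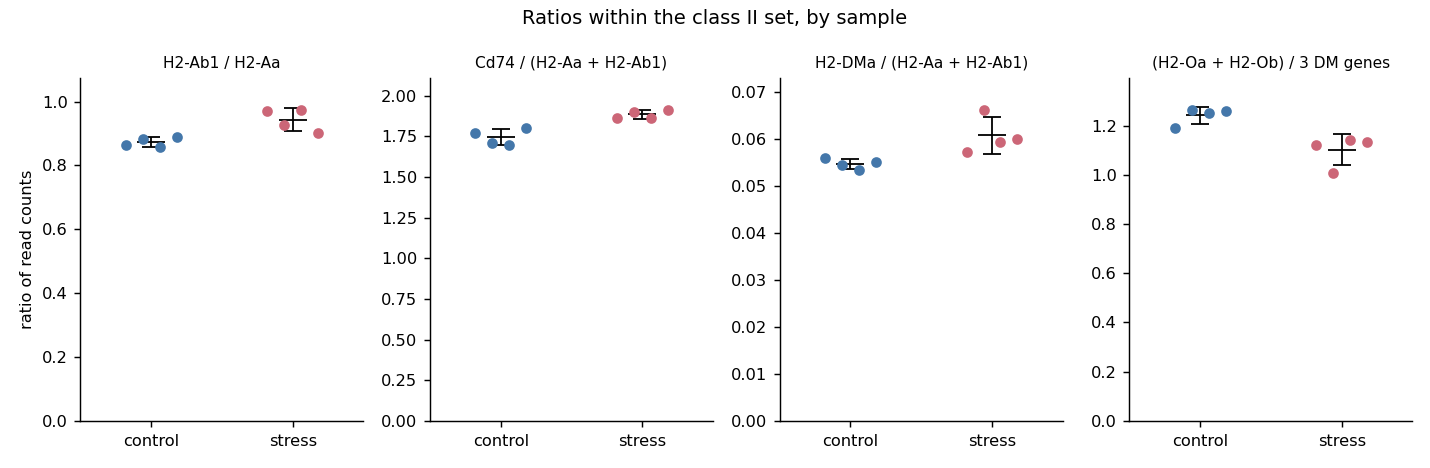
Ratio of read counts between members in each sample (y axes from 0, no unit), for 4 control and 4 stress samples. Points are samples and lines with bars the mean ± SD. The stress samples lay above the control samples in the ratios H2-Ab1 to H2-Aa, Cd74 to the I-A chains and H2-DMa to the I-A chains, and below them in the ratio of H2-DO to H2-DM genes, with no correction for transcript length.

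Transcript length moved with the group. In the 2841 tested genes with the shortest transcripts (303 to 2246 bases) the median log2 fold change was 0.13, and in the 2839 with the longest (4835 bases and over) it was -0.16. The longest annotated transcript has 6007 bases for Ciita, 3223 for H2-Aa and 1212 to 2670 for the other members, H2-Ab1 (1212) and Cd74 (1410) among the short ones. With the trend against length taken out of each library, a fit added after the data had been seen, 6 members fell, against 3.94% of all tested genes. These were the 4 named above with H2-DMb1 (log2 fold change -0.50, adjusted p = 0.00621) and H2-Eb1 (-0.42, adjusted p = 0.0313, edgeR's quasi-likelihood test). Ciita then had a log2 fold change of -0.66 (adjusted p = 0.00237), H2-Oa of -0.66 and Cd74 of -0.31 (adjusted p = 0.213). Of the 4 ratios, 3 depended on this step. With the length trend taken out of each library, the log2 difference of H2-Ab1 to H2-Aa turned to -0.08 (exact permutation p = 0.429), that of Cd74 to the I-A chains went to 0.04 (p = 0.400) and that of H2-DO to H2-DM to -0.09 (p = 0.257), and in each of them the groups overlapped. The ratio of H2-DMa to the I-A chains kept a difference of 0.15 without overlap (exact permutation p = 0.0286, and 0.114 after adjustment over the 4 ratios).

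The markers of B cells, the main carriers of class II in blood, moved in the same direction. Of 15 B cell markers 8 were lower and 0 higher at an adjusted p below 0.05, at a median of -0.45 (log2), and their summed level lay between 1307 and 1606 CPM in the control group and between 891 and 1159 CPM in the stress group. No marker of the list was at 0. Cr2, the complement receptor of mature B cells, fell from 50.6 ± 6.83 CPM in control to 29.1 ± 5.41 CPM in stress, by 0.79 on the log2 scale (adjusted p = 0.00346). Fcer2a, a low-affinity IgE receptor, and Cd22, an inhibitory co-receptor, fell by 0.72 and 0.72 on the log2 scale. Cd79a and Cd79b, the signalling chains of the B cell receptor, had log2 fold changes of -0.23 and -0.22 and did not pass (adjusted p = 0.345 and 0.359).

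**Figure D3:**
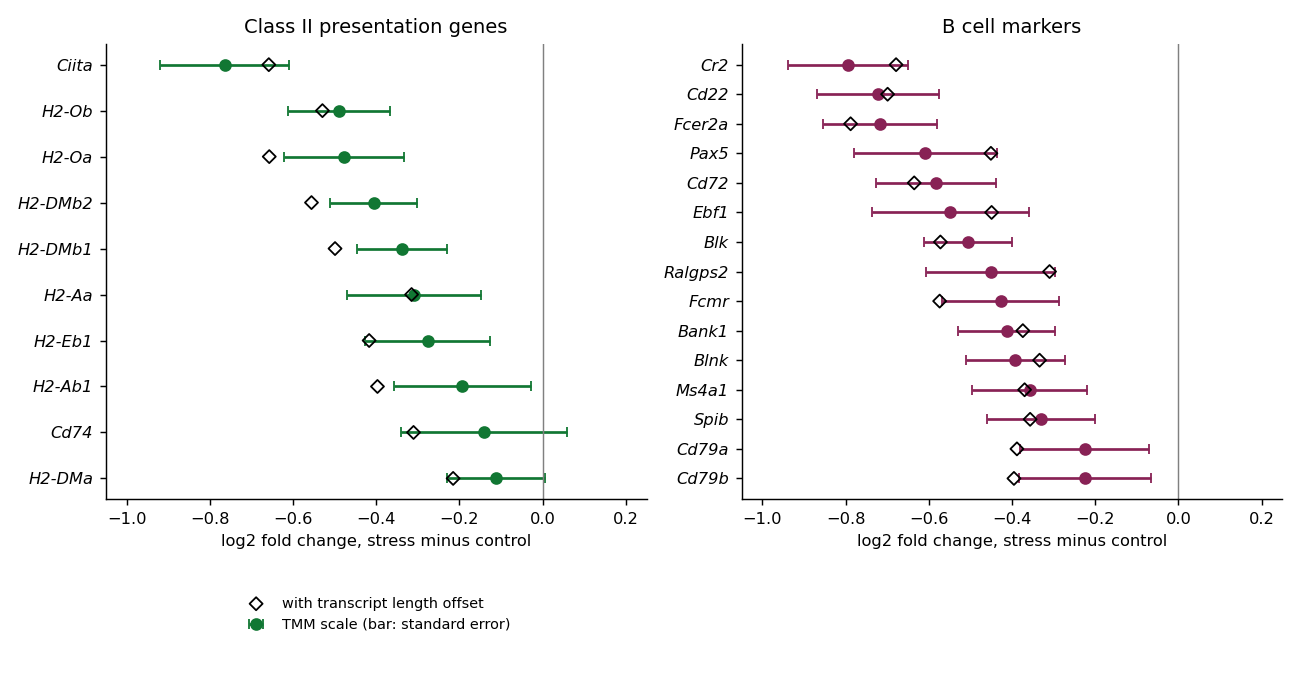
Log2 fold change of stress minus control (x axis) of the 10 members and of 15 B cell markers. Filled points with bars are the TMM-scaled fit ± its standard error, open diamonds the fit with the trend against transcript length taken out. All 25 values lie below 0 in both fits, from -0.79 to -0.11 in the TMM-scaled fit.

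To set each member against B cell transcripts, libraries were also scaled by their summed counts of Ms4a1, Cd79a, Cd79b and Cd22, which were 19656 to 52099 in the control samples and 7736 to 17357 in the stress samples. On this scale 0 of the 10 members were lower and 0 higher at an adjusted p below 0.05, and at an unadjusted p under 0.05 the counts were 0 and 0 (edgeR's quasi-likelihood test). Of all tested genes 0.0597% were lower and 23.5% higher, and their median log2 fold change moved to 0.35, so every member lies below that median here. Per B cell marker read, Cd74 had 1.67 ± 0.0341 reads in control samples and 1.94 ± 0.184 in stress samples (log2 fold change 0.22, standard error 0.29). The control samples lay close together, from 1.64 to 1.71, and the stress samples reached from 1.67 to 2.06.

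Ciita was the one member whose groups did not overlap per B cell marker read. It stood at 0.125, 0.116, 0.101 and 0.104 in the control samples and at 0.0950, 0.0924, 0.0551 and 0.0959 in the stress samples, while on this scale the stress samples all lay below the control samples for 0.307% of tested genes and all above for 24%. Its log2 fold change was -0.40 (standard error 0.20, adjusted p = 0.162), so the test did not call it, and without stress replicate 3 it was -0.24. The trend against transcript length was not taken out on this scale. The lowest B cell markers had like values on this scale, -0.40 for Cr2, -0.36 for Cd22 and -0.34 for Fcer2a. The groups did not overlap for Cd22, itself part of the scale, or for Fcer2a either. The other B cell markers lay between -0.24 (Pax5) and 0.13 (Cd79a and Cd79b). The log2 fold changes of the other members reached from -0.12 (H2-Ob, standard error 0.20) to 0.26 (H2-DMa, standard error 0.18).

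Markers of other cells that carry class II did not move alike. Of 7 tested markers of conventional dendritic cells 3 were higher and 0 lower, namely Xcr1, Cd209a and Flt3 with log2 fold changes of 1.48, 1.41 and 1.29. These are scarce transcripts, and the summed level of the list was 13.7 to 20.1 CPM in the control and 17.9 to 20.9 CPM in the stress samples. Itgax, the most abundant gene of the list, had means of 10.98 CPM in control and 8.23 CPM in stress (log2 fold change -0.41, edgeR adjusted p = 0.167). Of 6 markers of plasmacytoid dendritic cells 1 was lower, Pacsin1 (log2 fold change -0.49). All 8 markers of classical monocytes were higher (307.6 to 416.9 against 676.2 to 1164 CPM), and of 8 of non-classical monocytes 3 were lower and 0 higher (286.1 to 367.6 against 248.0 to 337.1 CPM). Most of the non-classical sum came from Itgal (mean 158.1 CPM in control and 170.1 in stress) and Spn (82.5 and 71.5), which did not pass. None of these sums was 0 in any sample, and the part of each cell type in the values of the members was not tested. Marker levels are RNA and not cell counts. By flow cytometry, the study reported fewer monocytes, B, T and NK cells and more neutrophils in blood after restraint.

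Among cells that lack class II in the mouse, markers of neutrophils and platelets were higher and those of T and NK cells were not called. Of 10 neutrophil markers 8 were higher, and of 7 platelet markers 7. Of 9 T cell markers 0 were called in either direction (also 0 and 0 when p was left unadjusted), and of 7 NK cell markers likewise 0 and 0 (0 and 1). DESeq2 and limma-voom called none of the T and NK cell markers either. Haemoglobin genes took 51.9 to 63.8% of the counts in the control samples and 61.2 to 75.5% in the stress samples (1 of 4 such genes, Hba-a2, was higher), from totals of 31471145 to 39014775 and 25978683 to 29655725 counts. Scaled by these totals alone, 5811 tested genes were lower and 52 higher, against 432 and 1222 with TMM. The 10 members together took 0.229 to 0.475% and 0.123 to 0.210%. Stress replicate 3 had the highest share of haemoglobin and the lowest count of a member, 260 for H2-DMb1.

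The factors that act with Ciita at class II promoters were lower in 1 of 8 genes and higher in 0. Rfx5, the DNA-binding subunit of the RFX complex, fell from 17.9 ± 1.19 CPM in control to 10.8 ± 2.83 CPM in stress, by 0.71 on the log2 scale (standard error 0.16, adjusted p = 0.0107), with every stress sample below every control sample. Rfxap and Rfxank, the other subunits of that complex, had log2 fold changes of 0.30 and 0.20 and did not pass (adjusted p = 0.290 and 0.437). The median of the list was -0.08, near that of all tested genes.

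Of 8 genes known to regulate Ciita, Pax5 fell and Spi1 rose. Pax5, the B cell identity factor, had 107.3 ± 9.64 CPM in control and 70.3 ± 19.1 CPM in stress (a log2 change of -0.61, adjusted p = 0.0337) and is also one of the B cell markers. Spi1, which encodes PU.1 of myeloid and B cells, had 25.6 ± 2.07 CPM in control and 44.04 ± 8.05 CPM in stress (log2 fold change 0.78, adjusted p = 0.00250). The other 6 did not pass, and the median of the list was -0.30.

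Among 10 enzymes and other proteins that prepare antigen and the invariant chain for class II, 3 rose, 0 fell and 7 did not pass, with a median log2 fold change of 0.47. Ctsd, the aspartic protease cathepsin D, rose from 181.0 ± 26.5 to 314.3 ± 36.0 CPM (log2 fold change 0.80, adjusted p = 0.00475), Ctsz by a log2 fold change of 0.52 and Ctse by 0.86 (adjusted p = 0.0499). Ctss, the protease that makes the last cut of the invariant chain in B cells and dendritic cells, was at 69.8 ± 7.82 and 82.7 ± 18.1 CPM and did not pass (adjusted p = 0.302). Many of these enzymes are abundant in neutrophils and monocytes, whose markers were higher in the same samples, and that part was not tested. The samples of each group stood in the order of their haemoglobin share for Ctsd. For Ctse this held in the control group alone, and for Ctsz in neither group. The part of red cells was not tested either.

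Of 4 genes for the turnover of class II at the surface, March8 rose, from 21.7 ± 6.48 to 41.3 ± 7.11 CPM (log2 fold change 0.93, adjusted p = 0.0124). Its control samples stood in the order of their haemoglobin share, and its stress samples did not. Which cells carried the rise of March8 was not tested. March1, the ubiquitin ligase that removes class II in resting B cells and dendritic cells, did not pass (49.2 ± 7.03 and 43.9 ± 3.86 CPM, adjusted p = 0.387). Among 7 costimulation genes Icosl fell (43.7 ± 2.57 to 30.5 ± 3.66 CPM, log2 fold change -0.52, adjusted p = 0.00764) and Cd80 rose (1.08 ± 0.296 to 2.14 ± 0.241 CPM, log2 fold change 1.00, adjusted p = 0.0219). On the T cell side, Cd4, the coreceptor that binds class II, did not pass (40.1 ± 4.09 and 37.6 ± 5.18 CPM, adjusted p = 0.635), nor did Lag3 or the 3 CD3 chains.

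Genes of MHC class I presentation served as a comparison, as class I is carried by all nucleated cells. Of 13 such genes 0 were lower and 0 higher at an adjusted p below 0.05 with edgeR (1 and 1 at an unadjusted p under 0.05), while DESeq2 called 2 and limma-voom 1 of them higher. Their median log2 fold change was 0.08 against -0.32 for the class II members, a difference that was not tested. The list was not uniform, with 8 values above 0 and 5 below. B2m (log2 fold change 0.58, edgeR adjusted p = 0.0653) and H2-D1 (0.28, adjusted p = 0.259) had every stress sample above every control sample. Nlrc5 had every stress sample below, at 52.6 ± 3.69 CPM in control and 38.4 ± 9.02 CPM in stress (-0.45, edgeR adjusted p = 0.0676).

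Class I and class II genes share a stretch of chromosome 17. From H2-Oa to H2-Eb2 (GRCm38 chromosome 17, 34092340 to 34341412, 249 kb) the count table held 14 tested genes, 8 of them members. The 6 others were Brd2, Psmb9, Tap1, Psmb8, Tap2 and H2-Eb2. The first 5, a bromodomain protein and the class I proteasome and transporter genes, had log2 fold changes between -0.15 and 0.12 and did not pass. H2-Eb2, a further class II beta chain gene, fell from 22.8 ± 2.93 CPM in control to 13.3 ± 2.80 CPM in stress, by 0.77 on the log2 scale (standard error 0.15, adjusted p = 0.00466), with every stress sample below every control sample. H2-Ob, which fell, and H2-Ab1, which did not pass, are neighbours among these tested genes. H2-Ea-ps, the alpha chain gene of I-E that this strain does not use, had 1 to 5 counts in control samples and 0 to 1 in stress samples, too few to enter the test.

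**Figure D4:**
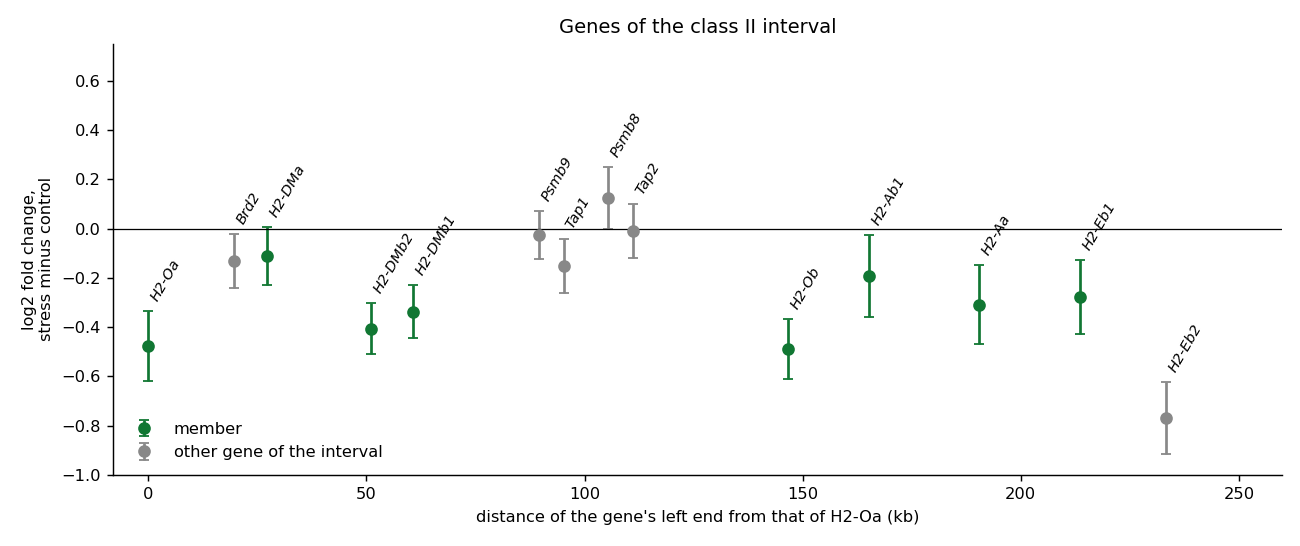
Log2 fold change of stress minus control (y axis, bars are standard errors) of the 14 tested genes between H2-Oa and H2-Eb2, by distance from H2-Oa in kb (x axis). The 8 members (green) had values from -0.49 to -0.11, and of the 6 other genes (grey) H2-Eb2 lay lowest at -0.77.

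Within the groups, most members varied together. After centring each gene on its group mean, Pearson's r between members over the 8 samples had a median of 0.70 over 45 pairs and reached 0.996 for H2-Ab1 with Cd74. The samples share their library scaling, and no such median over pairs of all tested genes was set beside these values, so they are a description. H2-Aa, H2-Ab1, H2-Eb1, Cd74, H2-DMa and H2-Oa formed the closest set, with r from 0.947 upward in each of their pairs. Ciita stood apart, with r from -0.30 to 0.08 to the other members. The trend against transcript length was not taken out of these values, and Ciita has the longest transcript of the members (6007 bases). In stress replicate 3 the chains were above their group mean (H2-Ab1 by 0.30 on the log2 scale) and Ciita was below it (-0.42).

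By the same measure, the genes outside the set most like Cd74 were Ly6d (r = 0.991), a B cell surface antigen, then D17H6S56E-5 (0.985), Cops6 (0.976), 2310011J03Rik (0.970) and Serp1 (0.969). Those most like H2-Aa were Cops6 (0.978), B3gnt2 (0.973), Mrpl18 (0.972), Ly6d and Serp1 (0.968 each). None of these 7 genes passed the test between the groups, at log2 fold changes from -0.40 to 0.32.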

How the data were processed

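Libraries from whole blood RNA were made with an Illumina TruSeq kit. The deposited values are unnormalized counts by gene symbol, with 1 column per sample. HISAT2, featureCounts and the mm10 build (GRCm38) are named in the submitters' processing notes; versions, annotation and strand setting are not given in the sources used here. A gene entered the test when 4 or more samples had 10 or more counts. Tests were run in R 4.3.3 with edgeR 4.0.16 (TMM, robust quasi-likelihood test, Benjamini-Hochberg adjustment over 11718 genes). CPM values use TMM-scaled library sizes. Each member had 260 to 85393 counts per sample. The scripts were tested on simulated data. Alternatives used DESeq2 1.42.0, limma 3.58.1 (voom), other scalings, other filters and a lowess trend (span 0.3) against transcript length, known for 96.9% of tested genes, as an offset. For the B cell scale, library sizes were replaced by the summed counts of 4 B cell markers; a further marker planned for this scale and the list is not reported here. The members and lists were chosen with earlier results of these data known. Genes were named by a rule: all members, up to 3 called genes per direction of each list (lists of cells without class II and monocytes as counts only), H2-Ea and H2-Eb2, and the 5 genes most like Cd74 and H2-Aa. Genes named beside these that did not pass were chosen after their values were seen. Positions and exons come from GENCODE M21 (GRCm38), promoters from RefSeq. No 2 samples were copies of each other: at most 1.74% of genes had an equal count above 0 in any pair of samples.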

Additional observations from a re-analysis of the deposited data

Results flagged for a closer look

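In each of 48 groups of 4 values (the CPM and the reads per B cell marker read of each member, and the 4 ratios, by group), the farthest sample was set against the range of its group. Chance alone gives about 1 such sample in 20 groups, and the values are not independent of each other. Stress replicate 3 stood apart in H2-DMb1, with 19.7 CPM against 17.7 CPM in the nearest sample, and in Ciita per B cell marker read (0.0551, nearest 0.0924). In the ratio of the H2-DO to the H2-DM genes, stress replicate 2 was the lowest at 1.01, and the nearest stress sample was at 1.120.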

How the results depend on the processing

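All 10 members kept a log2 fold change below 0 under every alternative tried for the TMM-scaled fit. Scaled by total counts alone, 10 members were lower at an adjusted p below 0.05 (49.6% of all tested genes) and 7 at the thresholds of the study (6.21%), and the median of all tested genes was -0.82. Without 1 sample each, 1 to 5 members were lower, beside 78 to 718 of all tested genes lower and 618 to 1421 higher. The same replicate number in both groups showed no sign of pairing (correlation of deviations from -0.15 to 0.05 over the 4 pairs, and 2 of 8 samples correlated best with their own number). This check cannot exclude that samples were paired. With the replicate block 2 members were lower, Ciita and H2-Oa, and 240 of all tested genes against 432. H2-Ob and H2-DMb2 then had log2 fold changes of -0.49 and -0.41 (adjusted p = 0.0529 and 0.0570, edgeR).

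Scaled to B cell markers, 0 members passed in either direction with the block, without any 1 sample or with Cd79a and Cd79b alone, and H2-DMa was 1 member higher with the geometric mean of 15 markers (log2 fold change 0.40, adjusted p = 0.0447, edgeR). Signs of values near 0 turned there: with Cd79a and Cd79b alone H2-Aa was at -0.0749, H2-Eb1 at -0.0371 and H2-DMb1 at -0.0905, and with the geometric mean H2-DMb2 was at 0.0985, H2-Oa at 0.0326 and H2-Ob at 0.0133. Without 1 sample each they ranged from -0.0567 to 0.0797 for H2-DMb1 and from -0.15 to 0.0300 for H2-DMb2. Ciita ranged from -0.46 to -0.24, and was at -0.28 with the geometric mean and -0.51 with Cd79a and Cd79b alone. The cause was not tested.

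Without 1 sample each, the log2 difference of the ratio ranged from 0.0935 to 0.13 for H2-Ab1 to H2-Aa, from 0.10 to 0.13 for Cd74 to the I-A chains, from 0.11 to 0.18 for H2-DMa to them and from -0.19 to -0.13 for H2-DO to H2-DM, with an exact permutation p of 0.0286 or 0.0571. With the trend against transcript length taken out, added after the data had been seen, they were -0.0801, 0.0432, 0.15 and -0.0924. In the replicate block they were 0.11, 0.11, 0.15 and -0.17, with an exact sign-flip p of 0.125 each, the smallest that 4 pairs allow.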
